A study of Homo sapiens with 4 samples.

Results

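The zinc finger genes of chromosome 19 were examined in RNA recovered with PARP1 from HK-2 cells. The members are every protein-coding gene of GENCODE release 29 on chromosome 19 whose symbol is ZNF followed by digits, and they number 249 of 19951 protein-coding genes. Of these, 7 symbols end in a letter (such as ZNF585A) and 3 are read-through genes that join neighbouring loci (such as ZNF559-ZNF177). A gene without an entry in a list was kept at 0.

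HK-2 is an immortalised epithelial line from the human proximal tubule. The study has 2 immunoprecipitations (IPs) of PARP1 made with a Flag antibody and 2 inputs, all from HK-2 cells with no treatment named in the labels. The labels name neither a tagged construct nor a control IP. Values of the inputs were not analysed here, so a site is a place where the recovered RNA had mutated tags and is not set against other RNA. Each IP has a list of sites, where a site is 1 base on 1 strand of GRCh38 at which sequenced tags carry a mutation, with the authors' count of tags (k), of mutated tags (m) and a gene. Separate cultures are not stated for the IPs, so the spread between them may be technical only.

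Most genes named ZNF encode C2H2 zinc finger proteins, in which short zinc-binding units are repeated in tandem and joined by a conserved linker, and each unit reads a few bases of DNA. Many of the chromosome 19 genes also encode a KRAB domain, which recruits the corepressor TRIM28 and, through it, the histone methyltransferase SETDB1 and heterochromatin proteins. These genes arose by repeated duplication, lie in clusters, and many of the encoded proteins silence transposable elements. PARP1 is an abundant nuclear protein that senses broken DNA and modifies proteins with poly(ADP-ribose).

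The sites that both IPs listed at the same base in exons are shown first, because their sequence could be read from annotated transcripts. Whether these sites lay in spliced or unspliced RNA was not tested. There were 7, each in another gene, and they made up 4.55% (95% exact binomial interval 1.85 to 9.14) of the members' exonic sites in IP 1 and 3.91% (1.59 to 7.89) in IP 2. Over all protein-coding genes 6.31% and 5.59% of exonic sites were listed in both, and both values lie within the members' intervals. The reference sequence around each is given 5′ to 3′ on the transcript, 29 bases long, from GENCODE release 29 (GRCh38), and the capital marks the listed base.
ZNF235: agcgtgtagtacacAtgagaaggacacca
ZNF112: acagaaaccccaagAgatggatgttcagg
ZNF701: ttggccaaggaaatAactgaggtaaattg
ZNF471: cacaccttgctcatTagtgagttcatttc
ZNF264: gcaaccggccagggTcgggcacaggtggg
ZNF324B: agtatttgcaacttCaaatagatgtagtt
ZNF324: tggtggccacttcaCccccaaccctgtct

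The windows of ZNF235 (chr19:44288534-44288562, minus strand) and ZNF112 (listed base 44336636 on the minus strand, in a window that crosses an exon junction) lie around bases listed as coding sequence. Those of ZNF701 (chr19:52585750-52585778), ZNF471 (chr19:56527786-56527814), ZNF324B (chr19:58457798-58457826) and ZNF324 (chr19:58473148-58473176) lie in 3′ untranslated regions (UTRs) on the plus strand. The window of ZNF264 (chr19:57191827-57191855, plus strand) lies in the 5′ UTR. The site of ZNF701 was a deletion with 4 of 4 tags mutated in each IP. At ZNF324 the list of IP 1 gave a substitution with 2 of 2 tags and that of IP 2 a deletion with 2 of 8 tags. The other 5 were substitutions with 2 of 2 tags in both. At each of the 7 sites, the 31 bases centred on the listed base were found in transcripts of no gene at another place of the annotation.

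Sites were shallow in these genes, as in the lists as a whole. IP 1 listed 844 sense sites in the members, with 2056 tags over them, and IP 2 listed 931 with 2278 tags. The median was 2 tags per site in each, as over all protein-coding genes. Sites with 2 tags, both mutated, made up 81.5% (78.7 to 84.1) in IP 1 and 82.4% (79.8 to 84.8) in IP 2, beside 77.1% and 75.5% over all protein-coding genes. Only 3 and 8 member sites (0.355% and 0.859%) had 10 or more tags, beside 1.49% and 1.58%. These intervals, like those below, cover counting error only. The lists held 166248 sites in IP 1 and 229782 in IP 2, of which 103909 and 125338 lay sense in protein-coding genes. The members held 0.812% (0.759 to 0.869) of the latter in IP 1 and 0.743% (0.696 to 0.792) in IP 2.

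Of the markers chosen for the cell type, 12 of 15 epithelial and proximal tubule genes were named in both IPs, where named means that a list assigned the gene a site on either strand. Of all protein-coding genes, 55.4% were named in both, and of genes in the same bins of span as these markers 66.8%. AQP1 and ANPEP, a water channel and a brush border peptidase, were named in neither. None of 3 leukocyte genes was named in both, while 2 of 3 endothelial genes and 1 of 4 genes of other nephron segments were. Counts this small are not read against that background, and these lists do not measure expression.

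The first question was how many of the ZNF genes the lists name. IP 1 named 180 and IP 2 named 180, and 158 (63.5%, interval 57.1 to 69.4) were named in both. The background was 55.4% of all protein-coding genes. A further 22 were named in IP 1 alone, 22 in IP 2 alone and 47 in neither. Of the 19951 protein-coding genes, IP 1 named 12278 and IP 2 named 13096. Among these 19951, 1222 were named in IP 1 alone, 2040 in IP 2 alone and 5633 in neither. Other protein-coding genes of chromosome 19 were named in both in 555 of 1223 cases (45.4%, interval 42.6 to 48.2). ZNF genes of other chromosomes were named in both in 178 of 265 cases (67.2%, interval 61.2 to 72.8), so the intervals of the ZNF genes of chromosome 19 and elsewhere overlapped. With a sense site required in both IPs the members numbered 147 (59.0%), against a background of 50.7%. No test was run on these counts, because the members were chosen with results of these lists known.

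Gene length went with being named. The members had a median span of 25199 bases, against 27107 for all protein-coding genes and 13602 for the other protein-coding genes of chromosome 19. When protein-coding genes were put into 10 bins of span, the share of members named in both was above that of other genes in each of the 8 bins with 5 members or more. In bin 5 the shares were 58.2% of 55 members and 55.7% of other genes. In bin 6 they were 70.2% of 57 members and 67.8%, and in bin 7 87.0% of 23 members and 74.9%. Other protein-coding genes weighted to the members' bins came to 56.6%.

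**Figure D1:**
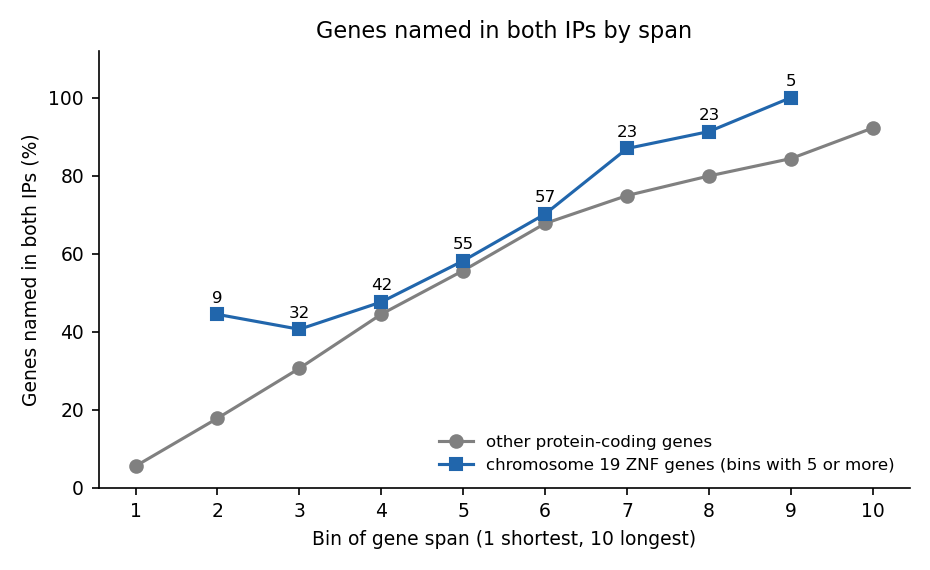
Share of genes named in both IPs (%) by bin of gene span, from the shortest (1) to the longest (10), for the ZNF genes of chromosome 19 (squares, with the number of members, bins of 5 or more) and for other protein-coding genes (circles). The squares lie above the circles in all 8 bins drawn, by little in bins 4 to 6.

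Some members without a site overlap other annotated genes. Of the 47, 24 had a site on their own strand within their span that the lists assign to another gene, and 21 had no site on either strand. ZNF709 (12461184 to 12513854, minus strand) held 8 sites on its strand in IP 1 and 18 in IP 2, all assigned to the overlapping genes AC008758.1 and AC008758.6. The span of ZNF468 held 4 and 4, assigned to its neighbours ZNF28 and ZNF320. When every site on the gene's strand within its span was counted, 167 members had a site in both IPs.

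ZNF546, ZNF780B and ZNF780A lie next to each other and were all at 0. They fall in a stretch of 459638 bases (39735636 to 40195273) with no site of either list on either strand, which holds 8 protein-coding genes and is the third longest empty stretch of chromosome 19. ZNF676 and ZNF729 lie in another, of 241034 bases (22096740 to 22337773). ZNF100 also had no site within its 44863 bases. Whether these stretches are not transcribed in HK-2 cells was not tested.

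Sense sites per 10 kb of span had a median over the 249 members of 0.722 in IP 1 and 0.765 in IP 2. Over all protein-coding genes it was 0.269 and 0.412. ZNF genes of other chromosomes had 0.810 and 1.14. The density of all members pooled was 1.07 and 1.18. Pooled over all protein-coding genes it was 0.766 and 0.924, and over ZNF genes of other chromosomes 0.911 and 1.10. For the other protein-coding genes of chromosome 19 the pooled density was 1.15 and 1.30. The median of those other genes was lower, at 0 and 0.200.

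Sites were spread over many members. There were 22 members with 20 or more sense sites over both IPs, 98 with 5 to 19, 79 with 1 to 4 and 50 with none. The 10 with most held 22.8% of all sense sites. Across the 249 members, the counts of the IPs were related with a rank correlation (Spearman) of 0.667 and a linear one (Pearson) of 0.783. Both were higher over all protein-coding genes (0.837 and 0.946). They were also higher over other protein-coding genes of chromosome 19 (0.763 and 0.895) and ZNF genes of other chromosomes (0.783 and 0.867). These values describe genes, which share the libraries and differ in span. IP 2 held more sense sites than IP 1 in 97 members, fewer in 79 and the same number in 23 of those with a site. In total IP 2 listed 1.10 times the sense sites of IP 1 in the members, and 1.21 times over all protein-coding genes. The counts differed by 3 or fewer in 196 members.

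**Figure D2:**
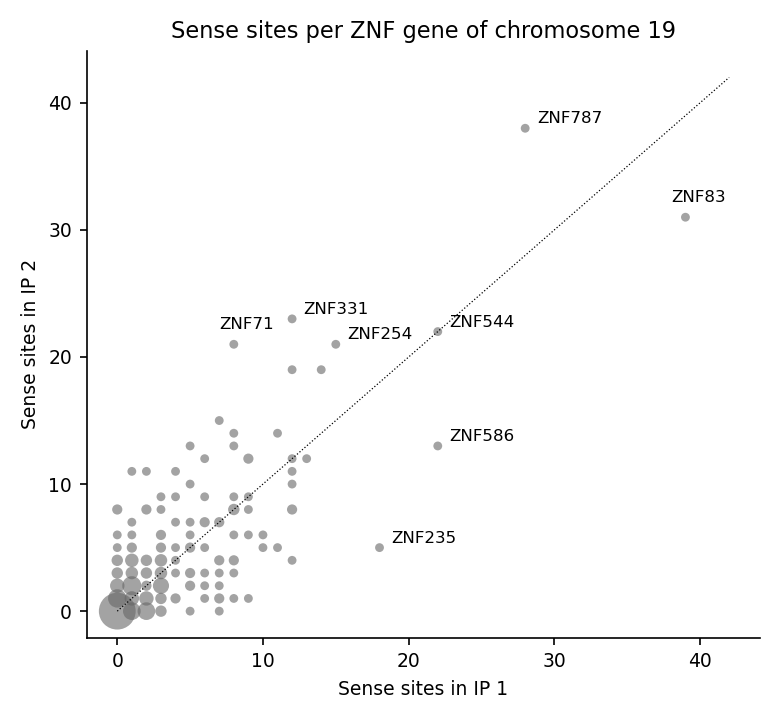
Sense sites per ZNF gene of chromosome 19 in IP 1 (x axis) and IP 2 (y axis), where point area rises with the number of genes and the dotted line marks equal counts. ZNF83 (39 and 31) and ZNF787 (28 and 38) have the most sites, and ZNF235 (18 and 5) and ZNF71 (8 and 21) lie farthest from the line.

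ZNF83 (52594060 to 52690496, minus strand, 96437 bases) was first by number, with 39 sense sites listed in IP 1 and 31 in IP 2. Of these, 1 in IP 2 and none in IP 1 lay in an exon, and no base was shared. Its densities were 4.04 and 3.21 per 10 kb. The deepest member site of all was an intronic deletion of ZNF83 in IP 2, with 15 tags of which 4 were mutated.

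ZNF544 (58228594 to 58277495, plus strand) had 22 sense sites in each IP, a density of 4.50 in both, and 4 shared bases. Its coding sequence held the deepest member site of IP 1, a substitution with 5 of 12 tags. ZNF586 had 22 and 13 sense sites and ZNF254 had 15 and 21. ZNF675 had 14 and 19, ZNF568 had 12 and 19, and ZNF708 had 11 and 14. Apart from ZNF83 and ZNF586, each of the 10 members with most sites had as many sites in IP 2 as in IP 1 or more.

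The largest differences between the IPs were in ZNF235, ZNF71 and ZNF331. ZNF235 (44228729 to 44305046, minus strand) went from 18 in IP 1 to 5 in IP 2. ZNF71 had 8 and 21, and ZNF331, an imprinted gene expressed from 1 parental copy in many tissues, had 12 and 23. Counted as runs of adjacent bases, the sites of ZNF331 came to 12 and 14, so its gap was mostly between bases of the same runs, whereas ZNF71 still had 8 and 19. With 1 library on each side, no test of these differences was possible.

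The density was highest in ZNF787 at 8.26 and 11.2 sense sites per 10 kb, as taken by the rule for named genes, which asks for 3 sense sites in each IP. Next were ZNF71 (2.56 and 6.73), ZNF146 (3.31 and 5.79), ZNF544 and ZNF700 (4.67 and 4.28). ZNF146 encodes a protein made up almost wholly of zinc fingers. ZNF226, ZNF180 and ZNF738 followed with 4.51 and 3.76, 4.60 and 3.07, and 4.91 and 2.45. Outside the rule and named after their values were seen, the short genes ZNF524 (3117 bases, 0 and 4 sites), ZNF792 (7696 bases, 2 and 8 sites) and ZNF543 (10268 bases, 8 and 1 sites) reached high densities in 1 IP alone. At the other end ZNF536, a repressor of neuronal differentiation and the longest member (485249 bases), had 1 and 2 sense sites. ZNF91 and ZNF93, whose proteins are known to silence SVA and L1 retrotransposons, had 5 and 2 and 4 and 11. ZNF91 was chosen for that role after its values were seen.

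**Figure D3:**
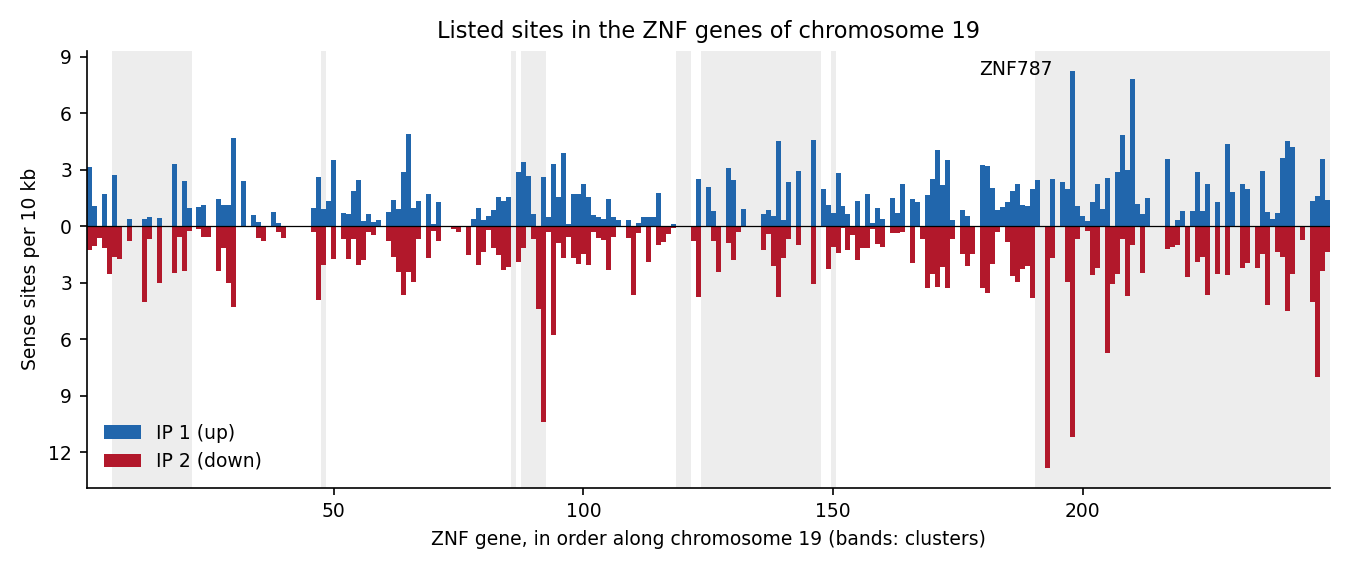
Sense sites per 10 kb (y axis) of the 249 ZNF genes in their order along chromosome 19 (x axis), with IP 1 upward and IP 2 downward and shaded bands marking alternate clusters. ZNF787 stands high in both IPs (8.26 and 11.2), while the tallest bar of IP 2 (ZNF524) has no counterpart in IP 1.

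The members were split into 16 clusters wherever neighbouring members lay over 1 Mb apart. The cluster from ZNF175 to ZNF331 (51571298 to 53580269, 40 members) had 34 members named in both IPs (85.0%) and 192 and 206 sense sites. That from ZNF653 to ZNF791 (11483427 to 12640098, 26 members) had 10 named in both (38.5%) and 10 in neither, of which 6 held sites on their strand that belong to other genes in the lists. The median spans of these clusters were 28634 and 21754 bases. Among other protein-coding genes, 44.5%, 55.7%, 67.8% and 74.9% were named in both in bins 4 to 7 of span. The median spans of those bins were 14893, 22497, 32577 and 47198 bases. Shares of clusters were not weighted by span. In the cluster from ZNF101 to ZNF254 (19668796 to 24129961, 37 members), 26 were named in both (70.3%), and in that from ZNF565 to ZNF573 (26 members) 19 were (73.1%). The last cluster, from ZNF628 to ZNF446 (55476332 to 58481230, 59 members), held 206 and 224 sense sites. Its members were short (median span 13443 bases) and 35 were named in both (59.3%). It held 26 of the 47 shared bases described below, of which 13 are those of ZNF787.

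By the authors' region classes, introns held 81.8% (interval 79.0 to 84.3) of member sense sites in IP 1 and 80.8% (78.1 to 83.3) in IP 2. Over all protein-coding genes introns held 90.6% and 91.2%. Exons held 18.2% (15.7 to 21.0) and 19.2% (16.7 to 21.9) in the members, beside 9.36% and 8.77% overall. Coding sequence held 65 and 61 member sites, 3′ UTRs 75 and 106, and 5′ UTRs 14 and 10.

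The larger exon share went with the make-up of the genes. Exons cover 17.4% of the members' spans and 7.54% of the spans of all protein-coding genes. Per megabase of exon, the members held 112.6 sites in IP 1 and 130.9 in IP 2, and per megabase of intron 106.04 and 115.6. The exon density was thus 1.06 and 1.13 times that of introns, beside 1.27 and 1.18 times over all protein-coding genes. In ZNF genes of other chromosomes it was 1.27 and 1.52 times, and in other protein-coding genes of chromosome 19 it was below 1, at 0.811 and 0.787.

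**Figure D4:**
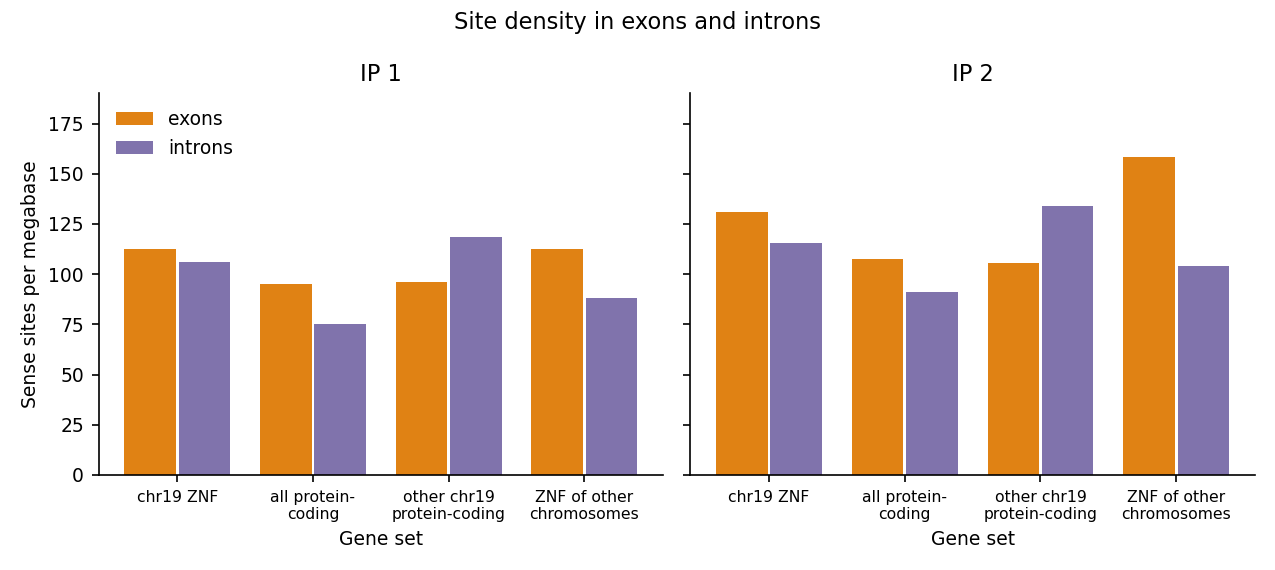
Sense sites per megabase in exons and introns (y axis) for 4 gene sets (x axis) in IP 1 (left) and IP 2 (right). In the ZNF genes of chromosome 19 the bars are close (112.6 and 106.04 in IP 1), while introns exceed exons in the other protein-coding genes of that chromosome.

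The sites in coding sequence were placed against the linker that joins adjacent fingers. A motif of this linker, the residues HTGEKP in any synonymous codons, was searched in frame on the coding strand of the longest coding transcript. It was found in 212 of the 249 coding sequences, with a median of 6 copies and at most 24 (ZNF850). Linkers with other residues were not counted, so a gene without the motif may still hold linkers. The stretch from the first to the last copy of the motif held 24 of 64 coding sites that could be placed in IP 1 (37.5%, interval 25.7 to 50.5). In IP 2 it held 24 of 60 (40.0%, interval 27.6 to 53.5). That stretch made up on average 38.7% and 33.3% of the coding sequences in which those sites lay, so both shares had intervals that hold the share of sequence. The number of motif copies and sense sites were weakly related (Spearman 0.152 over 249 genes, which share libraries and differ in length). ZNF787 has 2 copies of the motif and ZNF83 has 10.

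Duplicated genes can share sequence, so the 31 bases around each exonic site were looked up in all GENCODE transcripts. They also occurred in a gene elsewhere for 18 of 154 member sites of IP 1 (11.7%, interval 7.08 to 17.8) and 23 of 177 of IP 2 (13.0%, interval 8.42 to 18.9). Over all protein-coding genes the shares were 4.33% and 3.61%. Another member held the same bases at 7 and 15 of those sites. At 3 and 8 of the matched sites the bases occurred in 10 or more genes, at most 1107 and 588. Some of these widespread windows, such as 1 of ZNF121, are among those also found in other members. In coding sequence the matched sites were 4 of 65 and 7 of 61. A site in ZNF181 was matched in ZNF160, and a 3′ UTR site in ZNF525 was matched in 7 other genes, among them ZNF28, ZNF468, ZNF600 and ZNF765. Sites of this kind are uncertain, because the lists do not say how tags with several matches were assigned. Introns were not examined in this way.

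By mutation type, substitutions made up 73.7% (interval 70.6 to 76.6) and 71.4% (68.4 to 74.3) of member sense sites, beside 67.9% and 67.1% overall. In other protein-coding genes of chromosome 19 substitutions made up 71.9% and 70.6%, and in ZNF genes of other chromosomes 68.0% and 63.0%. Deletions made up 20.9% (18.2 to 23.8) and 22.8% (20.1 to 25.6) in the members, beside 25.7% and 26.5% over all protein-coding genes. Insertions made up 5.45% and 5.80%, beside 6.43% and 6.35%. All tags over a site were mutated at 90.05% and 90.3% of member sites, beside 84.8% and 84.01% overall. Sites antisense to a member numbered 103 in IP 1 and 164 in IP 2, which is 10.9% (interval 8.96 to 13.0) and 15.0% (12.9 to 17.2) of all sites assigned to members. The same shares over all protein-coding genes were 11.1% and 15.2%.

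The positions themselves were compared next. At the same base and strand, 47 sites were in both lists, 5.57% (interval 4.12 to 7.34) of those in IP 1 and 5.05% (3.73 to 6.66) of those in IP 2. Over all protein-coding genes the shares were 4.96% and 4.11%, both within the members' intervals. The 47 bases were assigned to 29 members (11.6%), against a background of 14.1% of protein-coding genes with a shared base. Of the 47 bases, 40 were in introns and 7 in exons. The base assigned to ZNF600, at 52805863, lies outside the span of that gene and within the span of ZNF28. In 25 members there was 1 shared base, and ZNF726 had 2, ZNF235 3, ZNF544 4 and ZNF787 13. ZNF726 had 4 and 7 sense sites in all. Of the members with 1 shared base that the rule names, ZNF90 had 12 and 10 sense sites, ZNF850 9 and 12, ZNF730 7 and 15 and ZNF420 6 and 7.

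Sites near a site of the other IP were also counted. Allowing 10 bases on either side added no member site in either IP, and over all protein-coding genes it added 0.277% of sites in IP 1 and 0.238% in IP 2. Allowing 100 bases added 28 and 30 member sites (3.32% and 3.22%), beside 3.44% and 2.86% over all protein-coding genes. At 45 of the 47 shared bases, all tags were mutated in both IPs, and at 46 the mutation type was the same in both. At 26 of them each IP had 2 mutated tags. Whether a shared base is one where the genome of HK-2 differs from the reference was not tested.

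ZNF787 (56087366 to 56121280, minus strand) had the most shared bases. Of its 13 shared bases, 11 are adjacent, from 56111197 to 56111207 in an intron, and each was listed as a deletion with 3 of 3 tags in IP 1 and 3 of 3 tags in IP 2. IP 1 also listed the same 11 bases as deletions on the opposite strand, with 2 of 2 tags at each, and those are all 11 of the antisense sites of the gene in that IP. Among 294 runs of shared deleted bases in protein-coding genes it was the only run of 11 bases, the longest found. The other shared bases of ZNF787 were substitutions at 56093663, with 2 of 2 tags in each IP, and at 56111697, with 4 of 4 and 2 of 2 tags.

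Counted as runs of adjacent bases, the 13 shared bases of ZNF787 became 3 and the 47 of all members became 36. The sense sites of ZNF787 became 17 runs in IP 1 and 25 in IP 2. Over the members, 844 bases of IP 1 formed 772 runs and 931 bases of IP 2 formed 831. Of the 88 member sites with at least 3 mutated tags in IP 1, 12 were listed with at least 3 in IP 2 as well, and 11 of those 12 belong to the run in ZNF787. With ZNF787 left out, 1 of 74 was shared (1.35%), in ZNF701, beside 566 of 10675 (5.30%) over all protein-coding genes. The members' share rests on 1 site, so it is not read as a difference.

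**Figure D5:**
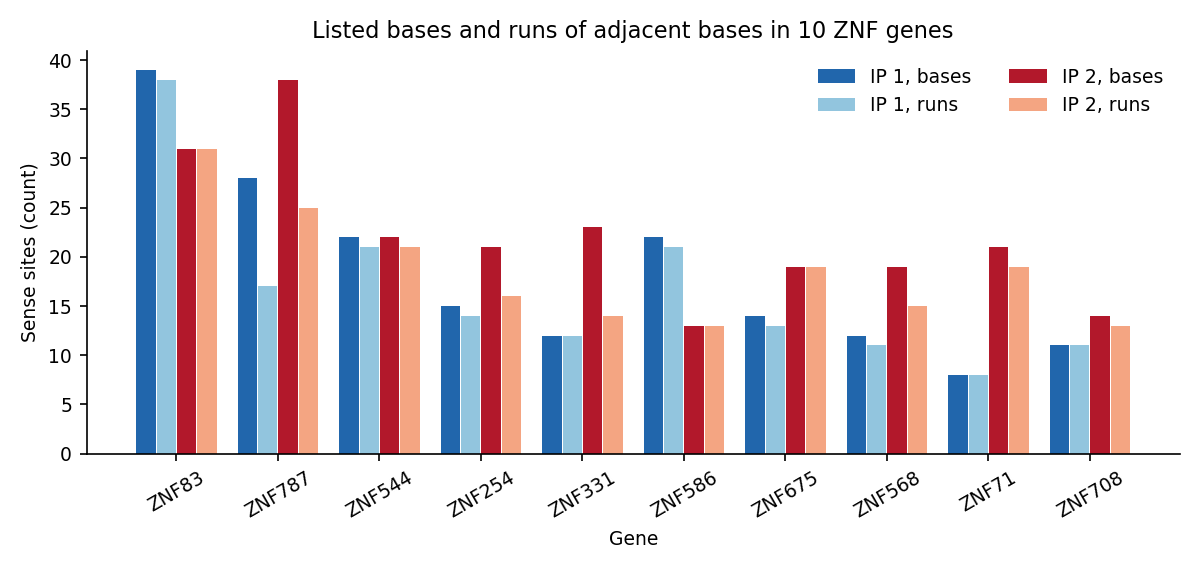
Sense sites counted as listed bases (dark) and as runs of adjacent bases (light) in IP 1 (blue) and IP 2 (red), for the 10 ZNF genes of chromosome 19 with most sense sites. ZNF787 falls from 28 to 17 and from 38 to 25, and ZNF331 falls from 23 to 14 in IP 2, while ZNF83 hardly changes.

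Of the shared intronic bases, those with most mutated tags in IP 1 lay in ZNF160 and ZNF444, each with 6 of 6 tags there and 2 of 2 in IP 2. ZNF850 and ZNF814 each had 4 of 4 and 2 of 2, and ZNF260 had 3 of 3 and 2 of 2. In ZNF586 a shared intronic substitution had 2 of 2 tags in IP 1 and 6 of 8 in IP 2. Shared bases of ZNF420, ZNF730 and ZNF235 had 2 mutated tags in each IP. ZNF701 (52555457 to 52587174), which holds the shared 3′ UTR deletion printed above, had 8 sense sites in each IP, of which 4 and 6 were in exons. In this gene most sites of IP 2 were exonic, unlike in the members at large.

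A chosen list of 28 genes held partners of KRAB zinc finger proteins and other silencing factors. Of these, 26 were named in both IPs, beside 55.4% of all protein-coding genes. The listed genes are long, with a median span of 48083 bases, and other protein-coding genes weighted to their bins of span came to 70.6%. The median density of the listed genes was 1.51 sense sites per 10 kb in each IP. TRIM28, the corepressor, had 10 sense sites in IP 1 and none in IP 2, where only 1 antisense site named it. The methyltransferase gene SETDB1 had 5 and 7, and the heterochromatin protein genes CBX1, CBX3 and CBX5 had 12 and 7, 2 and 7, and 13 and 17. EHMT1, which encodes a histone H3 methyltransferase, had 40 and 54 over 251054 bases (1.59 and 2.15 per 10 kb). DAXX and EHMT2, both on chromosome 6, were named in neither. Zinc finger genes of chromosome 19 with other symbols were named in both in 12 of 22 cases (54.5%). Of genes in the same bins of span, 49.8% were. ZSCAN5A had the most sense sites, 34 and 32 over 148714 bases (2.29 and 2.15 per 10 kb). ZBTB7A was denser, at 4.43 per 10 kb in each IP, and PEG3, an imprinted gene, was at 0 in both.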

How the data were processed

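RNA recovered with a Flag antibody from HK-2 cells was sequenced in 2 PARP1 IPs, and 2 inputs were not analysed here. The authors deposited 1 list of sites per IP, with whole-number counts of tags and of mutated tags at each base and, as a q-value, a false discovery rate (FDR), per the file headers. The build is GRCh38 and the tools named are TopHat2 and bcl2fastq, per the submitters' processing notes. How sites were called, and whether duplicate tags were collapsed, is not given in the sources used here. Lists were tied to the IPs by the IP name and number they carry. A base is listed only where at least 2 tags carry a mutation, so an unlisted gene can still have tags.

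Sites were read with Python 3.11.15 and pandas 2.3.3, and genes, spans and transcripts came from GENCODE release 29. A site was sense unless its class was antisense or intergenic. Members and lists were chosen with earlier results of these data known, so no list was tested. Genes were named in the text by rank in sense sites, density, shared bases, mutated tags at the best shared base, span without a site and difference between IPs. Members outside these ranks were named after their values were seen, among them those of the printed sequences other than ZNF235 and ZNF701, ZNF160, ZNF181, ZNF260, ZNF444, ZNF525, ZNF536, ZNF729, ZNF780A, ZNF780B and ZNF814, and genes that bound a cluster or match a site. Bins of span hold equal numbers of protein-coding genes. Intervals are exact (Clopper-Pearson, SciPy 1.17.1) at 95%. Matching of bases and of runs was checked on simulated data. Of the members' sense sites, 18 in IP 1 and 17 in IP 2 lie outside the GENCODE span. ZFP112 of the list of other zinc finger genes is ZNF112, a member, and was left out there. Planned protein and genome sequences were not used here, so linkers and 31-base windows were read from transcripts, a choice made after the data were seen. Alternatives were stricter sites, other assignment, either strand, nearby bases, and leaving out each IP.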

Additional observations from a re-analysis of the deposited data

How the results depend on the processing

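The count of 158 members named in both IPs fell to 39 with exon sites only, to 74 where only sites under the commonest FDR value of their list were kept and to 25 with at least 3 mutated tags. It was 147 with sense sites, 167 by span and 157 without read-through genes, and 180 with either IP alone. Over all protein-coding genes 55.4% were named in both, and 50.7% with sense sites. Counts with exon sites, with stricter sites and by span were not made over all protein-coding genes. Those shifts are therefore not read as particular to the members. Members whose span held only sites of other genes were also set aside (added after the data were seen), leaving 225. Those set aside were named in neither IP, so the count of 158 could not change, and it made up 70.2%. With the density of each gene averaged over the IPs first, the median over members was 0.902 sense sites per 10 kb. It was 1.21 by span, 1.21 over members with a site in either IP and 0.243 with the stricter FDR, and between 0.722 and 0.765 with either IP alone. The cause of these shifts was not tested. The share of bases in both lists was 13.6% of IP 1 and 12.5% of IP 2 with at least 3 mutated tags, which rests on the run in ZNF787. With sites within 100 bases (added after the data were seen) it was 8.89% and 8.27%, above the intervals. It stayed within them for either strand, within 10 bases, substitutions and, also added later, runs counted once and without ZNF787 (4.17% and 3.81%). It needs both IPs, so leaving out 1 gave no value, and the planned check against unique genome windows was not run. No paired analysis was possible because the inputs have no values here and nothing was tested between groups. With a median of 2 tags a site, a gene at 0 is not shown to lack tags.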
